A study of Rattus norvegicus with 3 samples.

Results

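Sciatic nerve of the rat taken 30 days after a crush injury was compared, gene by gene, with sciatic nerve that had been exposed and left uncrushed. The crushed nerve without further treatment is called model and the uncrushed nerve sham, and these are 2 of the 3 libraries of the study. Of 22608 genes in the table, 5 ribosomal RNA rows were dropped, and the 14392 genes whose level averaged 1 CPM or more over the 2 libraries are described here. CPM are counts scaled so that each library has the same total without those rows.

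All animals were male SD (Sprague-Dawley) rats. In the model the nerve was exposed and clamped with vascular forceps, and the clamped site was marked by sutures. In sham the nerve was exposed only. The remaining library comes from crushed nerve of rats given AKBA, a boswellic acid from the resin of Boswellia trees. It has the same day, strain and sex, and is given here as a value beside the other two without entering any ratio. The model library is labelled only as control, and it is read as crushed nerve without AKBA from its title and from the key given with the series. The sources used here do not say how many animals each library holds, their age at surgery, or whether the piece of nerve lay at the crush or beyond it.

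Each group has 1 library, so no difference below has a replicate check, no p-value exists and every comparison is between libraries, not between conditions. Levels are given in the order sham, model and AKBA. A ratio is the log2 of (CPM + 1) in model over (CPM + 1) in sham, which understates the difference of genes at low levels. Higher and lower mean model relative to sham, and at least 2-fold means a ratio of at least 1 or at most -1 on this scale. In whole-nerve RNA, fewer cells of a type and less RNA per cell cannot be told apart.

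The sham library held 74184217 counts, the model library 89505656 and the AKBA library 90071899, of which ribosomal RNA rows took 11.5%, 4.20% and 7.68%. Counting error is small at this depth. The exact 95% interval of the ratio of a gene at 1 CPM in both libraries runs from 0.716 to 1.40, and at 100 CPM from 0.968 to 1.03, covering counting error only. The defining genes of the labelled tissue were present, with the Schwann cell genes Pmp22 and Sox10 far above the filter in all 3 libraries. Genes of other tissues were also read. Skeletal muscle genes summed to 567, 1055 and 8249 CPM and red cell genes to 1401, 2109.8 and 1355 CPM. Fat cell genes summed to 17810.5, 10322 and 5846 CPM, and skin and hair genes to 48.2, 29.3 and 163 CPM. Muscle genes were thus higher in model than in sham (median 0.71 above all genes, 4 of 22 at least 2-fold higher), but far below their level in the AKBA library. The part of muscle and blood in the results below was not tested.

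A crush cuts the axons but leaves the tubes of basement membrane around them in place. Beyond the crush, axons break down, Schwann cells give up their myelin and turn into repair cells, and macrophages enter to clear the debris. As axons grow back, Schwann cells wrap them again, which requires large amounts of myelin protein and of membrane lipid, cholesterol above all.

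Taken over all genes, 498 were at least 2-fold higher in model and 242 at least 2-fold lower, which is 3.46% and 1.68% of the genes kept. With the ribosomal RNA rows left in the totals the split was 647 and 183, because that scaling moves the median of all genes by 0.11 on the log2 scale. The TMM, DESeq2 and upper quartile methods of scaling narrowed it to 418 and 282, 411 and 287, and 397 and 290, respectively. Under those methods the median ratio of all genes lay between -0.011 and 0.0055. With the totals used here that median was 0.08, and the medians of gene lists are given relative to it. Of 54 lists, 8 had a median at least 0.5 above all genes and 4 one at least 0.5 below. Cholesterol synthesis and myelin stood at the top, and fat cell and fatty acid synthesis genes at the bottom.

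**Figure D1:**
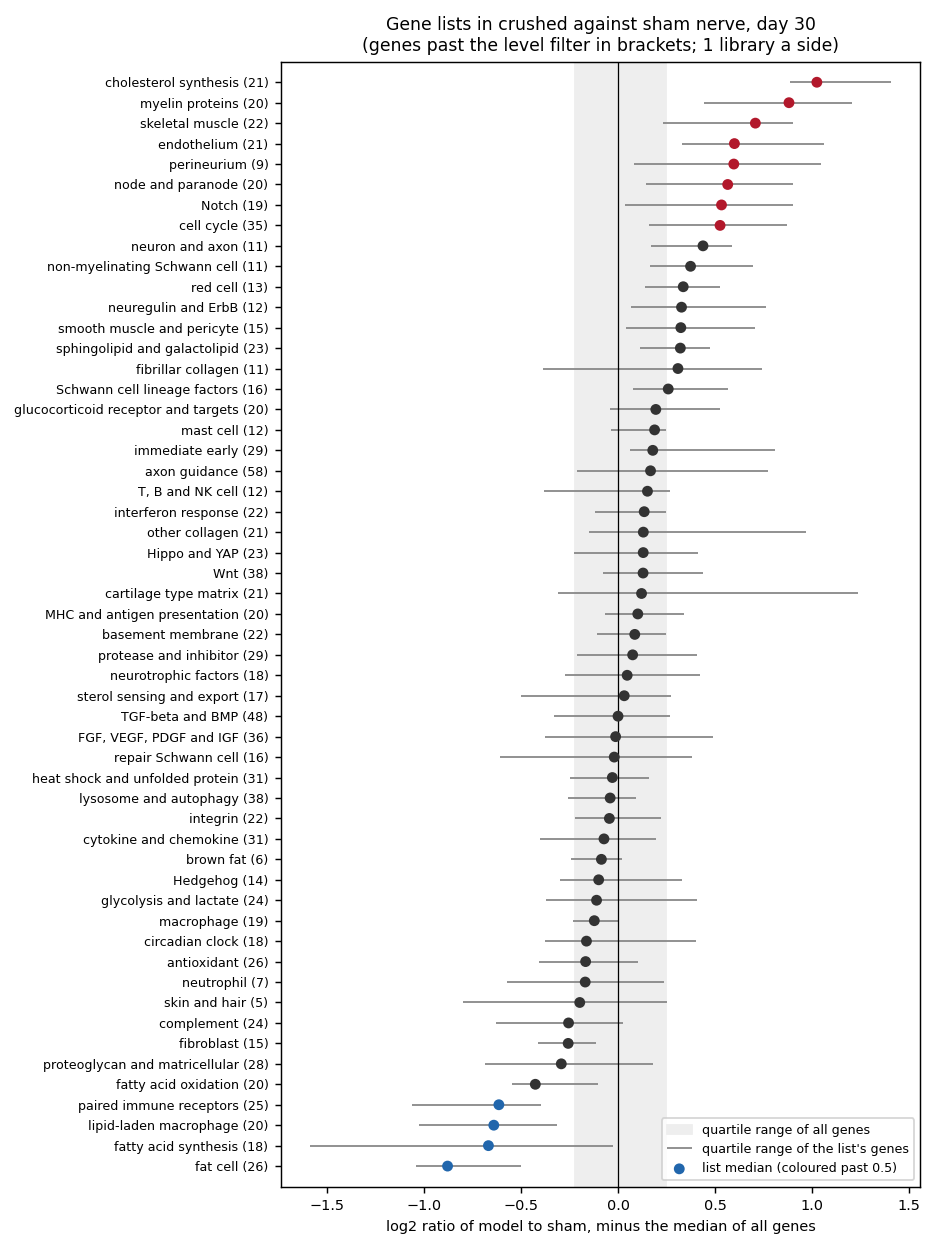
Median log2 ratio of model to sham, minus the median of all genes, for each gene list (points), with the range between the quartiles of its genes (lines) and of all genes (grey band). The cholesterol synthesis list stands highest at 1.02 and the fat cell list lowest at -0.88, each from 1 library a side.

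The largest shifts in absolute level followed the same lines only in part. The collagen genes Col3a1 (-6854 CPM from sham to model) and Col1a1 (-3447 CPM) were among the largest falls. So was the myelin gene Mbp (-1781 CPM), against the direction of its list. Pmp22, a membrane protein of compact myelin whose duplication causes a common inherited neuropathy in humans, stood at 5087, 11702 and 10199.7 CPM. Scd, which puts the double bond into newly made saturated fatty acids, stood at 31579, 3869 and 1097 CPM. The Scd gene thus made up 3.16% of the sham library and 0.387% of the model library.

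**Figure D2:**
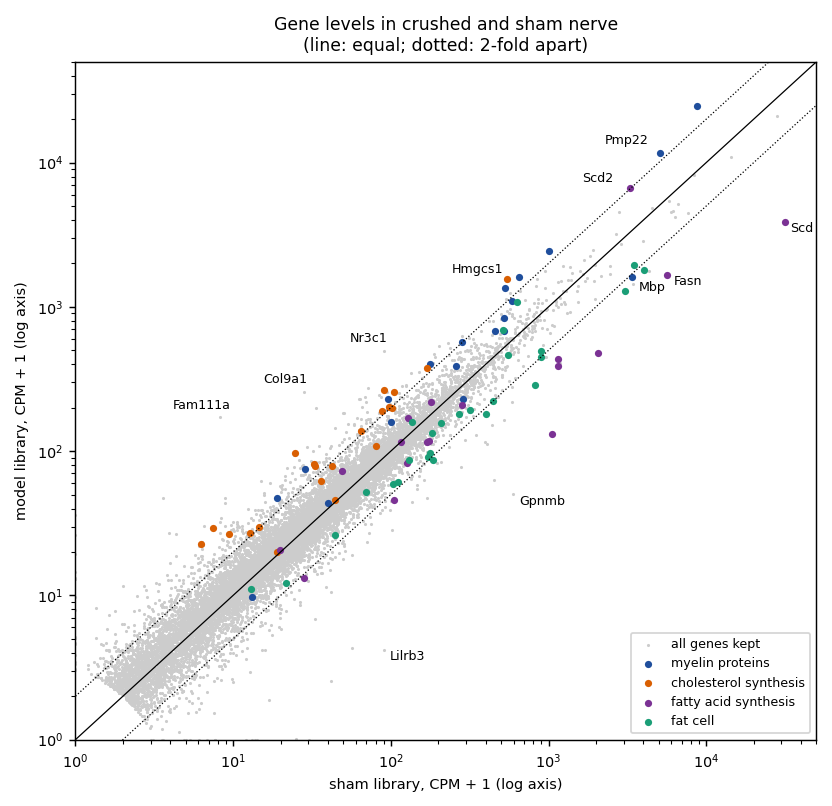
Level of every gene kept in the sham library (horizontal) and the model library (vertical), as CPM + 1 on log axes, with 4 gene lists in colour. Most myelin and cholesterol synthesis genes lie above the line of equality and most fat cell and fatty acid synthesis genes below it, with Mbp and Scd2 on the other side from most of their lists.

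Myelin protein genes were higher in the crushed nerve. Of 20 genes on the list, 10 were at least 2-fold higher and 1 was at least 2-fold lower. Of the 20, 17 lay above the median of all genes, against 50% by definition of that median. The list median was 0.88 above all genes. The log2 ratio of Pmp22 was 1.20. Prx (periaxin), which anchors the outer Schwann cell membrane, stood at 1005, 2435 and 2390.1 CPM (1.28). The fatty acid binding protein of myelin, Pmp2, stood at 531, 1357 and 842 CPM (1.35). Both crushed libraries were above sham for these genes, and the AKBA library lay close to the model for Pmp22 and Prx but lower for Pmp2.

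Genes of non-compact myelin and of the myelin-axon contact were higher as well. Mag, the glycoprotein on the inner membrane that faces the axon, stood at 27.5, 74.7 and 98.0 CPM (1.41). Gjb1, the connexin of the channels through the myelin folds, stood at 18.0, 46.6 and 54.7 CPM (1.32), and Cldn19, their claudin, at 177, 401 and 439 CPM (1.17). Mal, a lipid raft protein of myelin, was at 652, 1598 and 1523 CPM (1.29). Cryab, a small heat shock protein abundant in myelin, was at 282, 569 and 454 CPM (1.01). The phosphatase gene Dusp15 was at 94.6, 228 and 227 CPM (1.26).

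Of the 3 myelin list genes below the median of all genes, Mbp, myelin basic protein, alone passed 2-fold. Gjc3, a connexin, stood at 12.2, 8.70 and 36.8 CPM (-0.44) and Cd59, a complement inhibitor, at 287, 230.3 and 244 CPM (-0.32). Mbp stood at 3402, 1621 and 1446 CPM, a log2 ratio of -1.07, so that Mbp was lower in both crushed libraries. The transcripts of Mbp did not share a direction. The most abundant in sham stood at 2521, 413 and 456 CPM, while another stood at 50.3, 528 and 398 CPM and was thus higher in model. The next stood at 393, 90.1 and 213 CPM, lower again, and another lower transcript at 196, 2.40 and 6.42 CPM. Placed transcripts covered 99.9% of the Mbp gene count in sham and 77.3% in model.

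**Figure D3:**
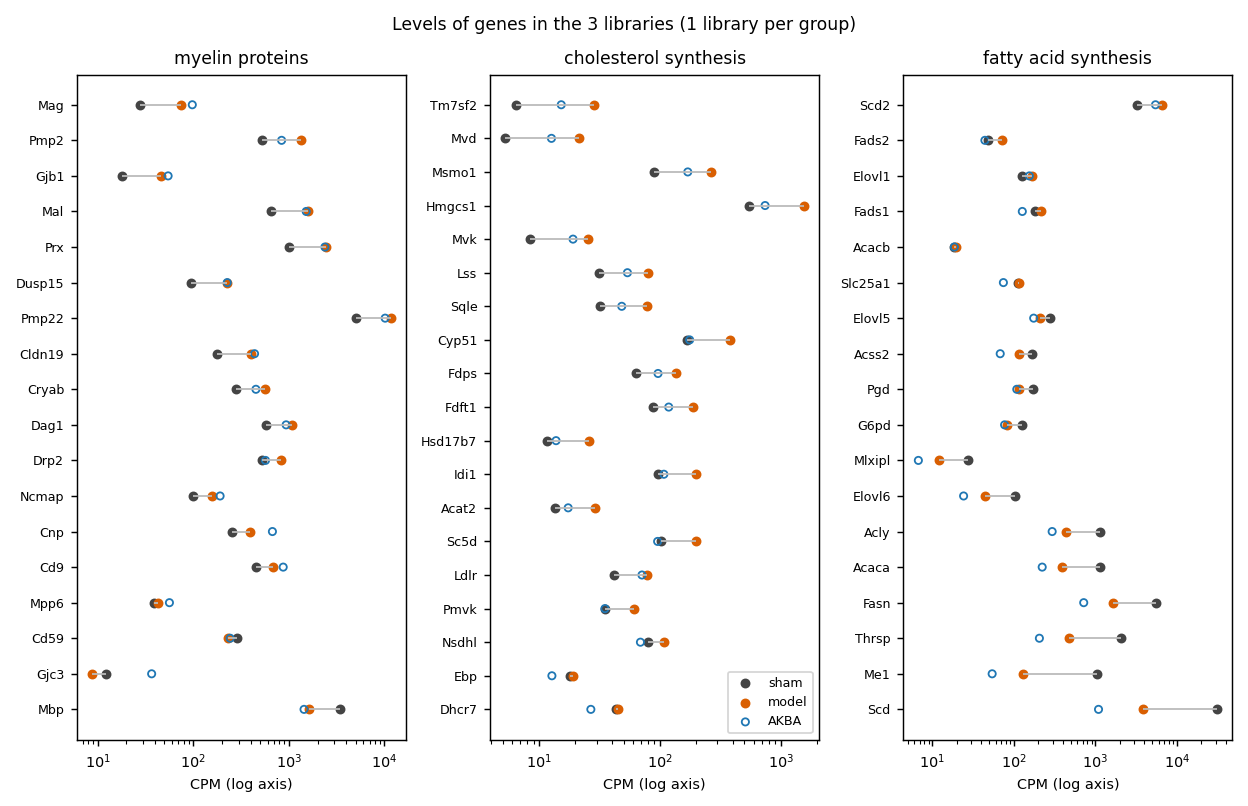
Level of genes of the myelin protein, cholesterol synthesis and fatty acid synthesis lists in the sham, model and AKBA libraries (CPM, log axes, 1 library each), ordered by the ratio of model to sham. Pmp22 runs from 5087 to 11702 CPM between sham and model, Hmgcs1 from 545 to 1568 CPM, and Scd from 31579 down to 3869 CPM.

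The transcription factors of the Schwann cell lineage differed less than the myelin genes. Of 16 kept, 1 was at least 2-fold higher, Sox10, which marks all Schwann cells and switches on myelin genes, at 36.7, 80.7 and 116 CPM (1.12). Egr2, the factor that drives the myelinating state, stood at 22.3, 43.7 and 52.3 CPM and Pou3f1, the factor of the promyelinating stage, at 2.74, 3.27 and 18.4 CPM. The list median was 0.26 above all genes.

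Genes of the node of Ranvier and the paranode, the gaps in myelin where impulses are renewed and the seals beside them, were higher as a list, with a median of 0.56 above all genes and 5 of 20 at least 2-fold higher. Nfasc encodes neurofascin, which holds both the node and the paranode together, and stood at 32.8, 197 and 124 CPM (2.55). Its glial partner at the node, gliomedin (Gldn), stood at 63.3, 144 and 167 CPM (1.18). Cadm4, which binds the axon along the internode from the Schwann cell side, stood at 61.6, 228 and 260.0 CPM (1.87). Sptbn4, the spectrin beneath the nodal membrane, was at 1.23, 3.62 and 3.31 CPM (1.05). The potassium channel gene Kcna1 was at 26.6, 55.3 and 57.8 CPM (1.03). Scn8a, the sodium channel of the mature node, whose messenger RNA is mostly made in the neuron, stood at 6.72, 3.30 and 1.84 CPM (-0.84).

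The higher level of Nfasc lay on a few transcripts. The most abundant in model stood at 5.88, 99.9 and 77.6 CPM, the next at 8.12, 39.1 and 9.04 CPM and another at 0, 32.1 and 13.1 CPM. The remaining placed transcripts had at most 10.6 CPM in model. Placed transcripts covered 79.3% of the gene count in sham and 92.3% in model.

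Genes of the repair Schwann cell did not stand apart as a list. Their median was -0.02 relative to all genes, with 2 at least 2-fold higher and 2 lower of 16. Jun, the factor that sets up the repair state, stood at 119, 135 and 207 CPM. Ngfr, the low-affinity neurotrophin receptor of immature and repair cells, stood at 28.0, 18.0 and 80.8 CPM, highest in the AKBA library. Shh, a signal that repair cells make, was higher in model alone, at 9.50, 31.0 and 11.7 CPM (1.61). Igfbp2, which binds insulin-like growth factors, stood at 1.80, 0.303 and 0.541 CPM (-1.10). Runx2 stood at 10.2, 3.85 and 10.6 CPM (-1.20), a direction that turns when the transcripts of the gene are summed.

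Of the Hedgehog genes, Dhh, the ligand by which Schwann cells shape the perineurium, stood at 34.1, 107 and 131 CPM (1.62). Their receptor gene Ptch1, itself a target of the pathway, stood at 168, 212 and 139 CPM and the target Gli1 at 49.3, 47.5 and 35.3 CPM. The median of the 14 genes was -0.10 against that of all genes, with Shh and Dhh the 2 that were at least 2-fold higher.

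Among non-myelinating Schwann cell genes, the adhesion molecule L1cam stood at 29.4, 67.3 and 45.4 CPM (1.17). Ncam1, another adhesion molecule of these cells, stood at 25.9, 67.7 and 44.7 CPM (1.35), but its sum of placed transcripts goes the other way. Adgrb3, an adhesion receptor, was lower, at 35.3, 13.3 and 12.1 CPM (-1.35). The list of 11 genes had a median of 0.37 above all genes.

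Of 11 genes of neurons and axons kept, all 11 lay above the median of all genes and 2 were at least 2-fold higher. Their summed level was 1478, 1882 and 1082 CPM, most of it from Sncg (gamma-synuclein) and Map1b, a microtubule protein. Sncg stood at 970.0, 1119 and 549 CPM and Map1b at 438, 639 and 438 CPM, within 2-fold. Uchl1, a neuronal ubiquitin hydrolase, stood at 15.0, 43.5 and 19.4 CPM (1.48) and Tubb3, neuronal tubulin, at 6.58, 14.9 and 9.20 CPM (1.07). The neurofilament gene Nefl stood at 9.65, 11.3 and 18.4 CPM.

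Growth factors for axons showed no common direction. Of 18 neurotrophic genes kept, 9 lay above the median of all genes and 9 below, with a list median of 0.05 above it. At least 2-fold, 0 were higher and 0 lower. Over all genes kept the shares were 3.46% and 1.68%, so a list of this size would hold few such genes. Cntf, made by myelinating Schwann cells, stood at 162, 259 and 236 CPM. Gdnf and Bdnf, which repair cells make, were below the level filter, with 49, 38 and 165 counts and 83, 0 and 149 counts in sham, model and AKBA. Of the ligands of the EGF family, Hbegf and Tgfa passed 2-fold upward. Hbegf stood at 16.0, 58.7 and 34.7 CPM (1.81) and Tgfa at 29.9, 61.8 and 39.9 CPM (1.02). Nrg1, the neuregulin that drives myelination, stood at 2.88, 1.54 and 1.92 CPM (-0.61) and Egf at 4.60, 5.40 and 5.92 CPM (0.19). The neuregulin receptors of Schwann cells, Erbb2 and Erbb3, stood at 15.6, 28.5 and 33.9 CPM and 131, 178 and 291 CPM respectively, highest in the AKBA library.

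Most cholesterol synthesis genes were higher. Of 21 genes, 15 passed 2-fold upward and 0 downward, 19 lay above the median of all genes, and the list median was 1.02 above it. At the entry, Hmgcs1, which makes HMG-CoA, stood at 545, 1568 and 744 CPM (1.52). Acat2 and Idi1, enzymes at the start and middle of the pathway, had ratios of 1.03 and 1.04. Further on, Mvk and Mvd, which act on mevalonate, were at 8.45, 25.4 and 19.1 CPM and 5.22, 21.6 and 12.7 CPM (1.48 and 1.86). The first enzyme committed to sterols, Fdft1, stood at 87.5, 188 and 118 CPM (1.10), followed by Sqle at 31.8, 77.7 and 48.3 CPM (1.26) and Lss at 31.4, 80.4 and 53.9 CPM (1.33). Model was the highest of the 3 libraries for each gene named here.

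The late steps held the largest and the smallest ratios of the 21 genes. Tm7sf2, a sterol reductase, stood at 6.46, 28.5 and 15.2 CPM (1.99), and Msmo1 at 89.4, 266 and 170.3 CPM (1.56). Cyp51 and Hsd17b7, which remove methyl groups from the sterol ring or act beside those that do, stood at 168, 378 and 176 CPM and 11.7, 26.1 and 13.8 CPM (1.16 and 1.09). By contrast Dhcr7, an enzyme of the last steps, stood at 43.3, 44.6 and 26.8 CPM and Ebp at 18.0, 18.9 and 12.8 CPM.

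The regulators of the pathway had no common direction. The 17 genes of sterol sensing and export lay 0.03 above all genes by their median, with 1 at least 2-fold higher and 1 lower. Srebf2, the factor that switches on the enzymes, stood at 83.6, 148 and 112 CPM (0.82). Insig1, which holds that factor back and is itself its target, stood at 363, 211 and 118 CPM, lower in both crushed libraries by less than 2-fold in model. Apoe, which carries lipid between cells of the nerve, was lower in model alone, at 3433, 1439 and 6246 CPM (-1.25). Abca1, a cholesterol exporter, stood at 320.0, 188 and 628 CPM. Ch25h, which makes an oxysterol that represses the pathway, was higher, at 1.78, 9.92 and 7.62 CPM (1.97).

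The promoters of some of these genes are printed to show the letters that cholesterol genes share, beside Insig1 and Thrsp, which were lower in model. Each runs from 250 bases before to 50 after the gene start (RefSeq, build GRCr8), 5′ to 3′ on the strand of the gene. Capitals mark CCAAT, read on either strand, the letters bound by the factor NF-Y, a partner of the sterol regulatory factors. They lie at chr2:53382054-53382353 on the plus strand for Hmgcs1, chr1:212789492-212789791 on the minus strand for Tm7sf2, chr19:67414925-67415224 on the minus strand for Mvd, chr4:8057720-8058019 on the minus strand for Insig1, chr1:161138915-161139214 on the minus strand for Thrsp.
Hmgcs1: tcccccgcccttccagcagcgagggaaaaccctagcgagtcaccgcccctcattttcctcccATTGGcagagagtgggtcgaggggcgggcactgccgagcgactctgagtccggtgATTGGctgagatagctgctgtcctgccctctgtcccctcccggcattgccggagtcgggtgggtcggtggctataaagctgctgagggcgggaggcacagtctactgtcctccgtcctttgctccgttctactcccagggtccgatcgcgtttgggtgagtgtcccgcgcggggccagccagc
Tm7sf2: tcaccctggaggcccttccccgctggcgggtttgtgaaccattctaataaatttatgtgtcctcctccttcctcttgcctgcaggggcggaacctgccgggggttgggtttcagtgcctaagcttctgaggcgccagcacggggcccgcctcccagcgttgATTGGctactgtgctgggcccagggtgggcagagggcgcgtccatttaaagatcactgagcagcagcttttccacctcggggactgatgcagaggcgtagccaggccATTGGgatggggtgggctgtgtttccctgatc
Mvd: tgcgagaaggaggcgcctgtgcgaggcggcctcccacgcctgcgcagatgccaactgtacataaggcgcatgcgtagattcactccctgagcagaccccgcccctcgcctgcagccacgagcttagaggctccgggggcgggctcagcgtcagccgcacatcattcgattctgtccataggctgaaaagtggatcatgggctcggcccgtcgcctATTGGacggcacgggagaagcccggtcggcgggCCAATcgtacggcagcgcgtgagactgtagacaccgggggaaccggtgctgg
Insig1: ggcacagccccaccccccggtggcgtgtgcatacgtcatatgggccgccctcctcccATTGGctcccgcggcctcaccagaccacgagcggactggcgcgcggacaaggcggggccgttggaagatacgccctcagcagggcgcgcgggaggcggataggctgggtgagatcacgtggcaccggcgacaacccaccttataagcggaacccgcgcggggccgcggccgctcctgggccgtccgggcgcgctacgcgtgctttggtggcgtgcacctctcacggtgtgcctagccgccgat
Thrsp: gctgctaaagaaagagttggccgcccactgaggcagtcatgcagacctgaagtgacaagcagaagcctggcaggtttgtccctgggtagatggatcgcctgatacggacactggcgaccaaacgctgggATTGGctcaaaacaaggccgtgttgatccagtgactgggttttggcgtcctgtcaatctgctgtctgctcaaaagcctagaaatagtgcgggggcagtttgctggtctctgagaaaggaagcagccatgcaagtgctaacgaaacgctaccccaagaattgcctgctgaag
The cholesterol list had promoters for 15 genes, of which 12 held the capital letters on either strand and 13 held GGGCGG, the letters of the GC box. Of all 27457 promoters of this length, 37.7% held the capital letters and 34.9% the GC box. The NF-Y letters were in 11 of 15 promoters of fatty acid synthesis genes too, although most of those genes were lower in model. In the myelin list they were in 5 of 13. The sterol regulatory letters TCACNCCAC were in 0 of the cholesterol promoters and 1.13% of all. Each motif was searched on both strands and none holds another. Matches of letters describe these windows and locate no binding.

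Fatty acid synthesis genes were lower. Of 18 kept, 8 were at least 2-fold lower and 1 higher, with a median of -0.67 relative to all genes. Acly, which makes cytosolic acetyl-CoA, stood at 1143, 436 and 296 CPM (-1.39). Acaca, the carboxylase of the committed step, stood at 1145, 389.6 and 223 CPM (-1.55) and the synthase Fasn at 5637, 1669 and 722 CPM (-1.76). Me1, which supplies NADPH for the synthase, had a ratio of -3.00, at 1051, 131 and 54.4 CPM. Elovl6, which lengthens the products of the synthase, stood at 103, 44.5 and 24.3 CPM (-1.20). For all 5 sham was the highest library and AKBA the lowest.

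The desaturases split. Scd had a ratio of -3.03 and Scd2, its close relative, was higher, at 3272, 6659 and 5488 CPM (1.03). Both transcripts of Scd were lower, the first at 16878, 2367 and 765 CPM and the second at 14701, 1502 and 332 CPM. Reads that match both genes could be shared between them, and the sources used here do not say how the authors counted such reads. Mlxipl, the sugar-sensing factor that drives lipid synthesis, stood at 27.1, 12.2 and 6.76 CPM (-1.09), and Thrsp, a lipid synthesis regulator of fat, at 2051, 476 and 206 CPM (-2.10).

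Fat cell genes were lower beside them. All 26 listed genes were kept, 5 were at least 2-fold lower and 0 higher, and the median was -0.88 relative to all genes. Adipoq (adiponectin), a hormone made by fat cells, stood at 3039, 1296 and 674 CPM (-1.23), Lep (leptin) at 401, 179.9 and 74.3 CPM (-1.15) and Fabp4 at 4021, 1813 and 925 CPM (-1.15). Rbp4, the retinol carrier, stood at 818, 288 and 129 CPM (-1.50), and Aqp7, the glycerol channel of fat cells, at 183, 86.2 and 38.0 CPM (-1.08). Plin1, the coat protein of their lipid droplets, stood at 317, 192 and 116 CPM (-0.72). Cfd (adipsin) had the highest ratio of the list, at 626, 1076 and 644 CPM (0.78). Fat lies in and around the outer sheath of the nerve, so these values stand beside those of lipid synthesis. Relative to all genes, the list medians were -0.88 for fat cell genes and -0.67 for fatty acid synthesis genes. The part of fat cells in the lipid synthesis result was not tested.

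Some genes linked to fat or fuel use that are on neither list were among the 30 lowest ratios, and were picked from there. Pnpla3, a lipase of lipid droplets, stood at 451, 62.4 and 31.3 CPM (-2.83) and Angptl8, a feeding hormone of liver and fat, at 40.7, 9.59 and 4.46 CPM (-1.98). Serpina12 (vaspin), a serpin of fat, stood at 40.6, 1.55 and 1.88 CPM (-4.03). The mitochondrial pyruvate carrier gene Mpc1 stood at 392, 115 and 105 CPM (-1.76). In these 4 genes the AKBA library was close to the model or below it.

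The median of genes that burn fatty acids was -0.43 against that of all genes, with 1 of 20 at least 2-fold lower. This was Ppara, the nuclear receptor that controls them, at 15.8, 4.79 and 5.46 CPM (-1.54). Genes for the lipids of myelin stood on the side of the myelin genes. Of 23 sphingolipid and galactolipid genes 21 lay above the median of all genes and 3 were at least 2-fold higher. Fa2h, which hydroxylates the fatty acids of myelin lipids, stood at 52.7, 152 and 124 CPM (1.51), and Gal3st1, which makes sulfatide, at 7.51, 16.1 and 17.5 CPM (1.01). Elovl7, which makes long fatty acids, stood at 18.2, 37.7 and 38.1 CPM (1.01). Ugt8, which makes galactosylceramide, stood at 498, 896 and 871 CPM.

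The main fibrillar collagens stood within 2-fold. Col1a1 stood at 14309, 10862 and 16625 CPM and Col3a1 at 28010.1, 21156 and 26802 CPM. Several collagens known from cartilage were higher. Of 21 cartilage matrix genes 6 passed 2-fold upward and 1 downward, but the median of that list was only 0.12 above all genes. Col9a1, a chain of collagen IX, which coats collagen II fibrils, stood at 27.1, 257 and 43.4 CPM (3.20) and Col9a2 at 7.86, 46.4 and 13.0 CPM (2.42). Both lay nearer to sham than to model in the AKBA library. Col9a3 and Col2a1 were high in both crushed libraries, at 20.4, 62.5 and 68.5 CPM and 21.1, 75.6 and 119 CPM (1.57 and 1.79). Col11a2, a chain of collagen XI, stood at 3.65, 10.6 and 10.6 CPM (1.31), a direction that turns when placed transcripts are summed. Lect1 (chondromodulin), a matrix protein that keeps vessels out of cartilage, stood at 70.2, 275 and 199 CPM (1.95). Prg4 (lubricin), the lubricant of joint surfaces, was lower, at 19.1, 7.08 and 15.6 CPM (-1.32).

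Of 22 basement membrane genes, 1 was at least 2-fold higher, the laminin chain Lama5 of vessels and mature membranes, at 43.0, 144 and 122 CPM (1.73). Lama2, the laminin chain around Schwann cells, stood at 1275, 1039 and 975 CPM. Itgb4, the integrin that binds laminin on mature Schwann cells and perineurium, stood at 573, 1247 and 998 CPM (1.12), and was the 1 integrin gene of 22 past 2-fold. Its partner Itga6 stood at 662, 1286 and 1213 CPM. Among proteases, Mmp15, a membrane-bound metalloprotease, stood at 69.7, 186 and 193 CPM (1.40).

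Most genes of proteoglycans and matricellular proteins lay below the median of all genes. The 28 genes had 8 above it and a median -0.29 from it. Dcn (decorin) stood at 6384, 4167 and 4355 CPM and Lum (lumican) at 916, 547 and 694 CPM, within 2-fold between sham and model. Cyr61, a matricellular target of YAP, was higher, at 28.6, 106 and 82.7 CPM (1.86), and Wisp2, of the same family, lower, at 68.0, 30.3 and 65.3 CPM (-1.14). The 15 fibroblast genes had a median of -0.26 and none was past 2-fold, with the broad marker Pdgfra at 477, 438 and 339.7 CPM.

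Most blood vessel genes were higher. Of 21 endothelial genes, 6 passed 2-fold upward and 1 (Prox1) downward, with a median of 0.60 above all genes. The receptor Flt1 stood at 61.8, 138 and 116 CPM (1.15) and Cldn5, the claudin that seals nerve capillaries, at 26.9, 78.9 and 90.7 CPM (1.52). Plvap, which forms the diaphragms of leaky capillaries and is usually low in the barrier vessels of nerve, stood at 48.7, 184 and 212 CPM (1.90). The vascular factors Sox17 and Sox18 stood at 19.2, 55.5 and 37.3 CPM and 9.14, 26.9 and 16.3 CPM (1.49 and 1.46), and Esam, an adhesion protein of vessels, at 28.2, 63.2 and 53.6 CPM (1.13). Mfsd2a, a lipid transporter of barrier endothelium, stood at 3.65, 9.84 and 9.10 CPM (1.22). Cldn5 and Mfsd2a of tight capillaries and Plvap of leaky ones were thus all higher. The pan-endothelial genes Pecam1 and Cdh5 stood at 94.4, 167 and 148 CPM and 73.9, 129.8 and 96.9 CPM respectively, within 2-fold. Vwf (von Willebrand factor), the clotting protein of endothelium, went against the list, at 256, 153 and 223 CPM (-0.74), and the tight junction gene Ocln stood at 19.8, 20.6 and 15.9 CPM (0.05).

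Some genes of lymphatic vessels were lower in the same library. These were grouped after their values were seen. Prox1, the master factor of lymphatic endothelium, stood at 11.2, 3.35 and 3.78 CPM (-1.49), Mmrn1 at 101, 27.6 and 38.8 CPM (-1.83) and the lymphatic chemokine Ccl21 at 98.5, 38.1 and 61.2 CPM (-1.35). Flt4, the receptor for lymphatic growth factors, stood at 18.1, 8.79 and 14.1 CPM (-0.96). Lyve1 stood at 88.8, 78.4 and 34.9 CPM and Pdpn at 58.6, 54.2 and 39.7 CPM, near equal, and Reln at 319, 438 and 364 CPM. The direction of Prox1 turns when placed transcripts are summed.

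Around vessels, Notch3, the receptor of mural cells, stood at 57.8, 154 and 138 CPM (1.39), and Kcnj8, a potassium channel of pericytes, at 10.4, 27.7 and 21.5 CPM (1.34). Des (desmin), which muscle also makes, stood at 53.6, 121 and 183 CPM (1.17). The contractile gene Acta2 stood at 267, 331 and 508 CPM. As a list, the 15 smooth muscle and pericyte genes had a median of 0.32 above all genes. Notch3, Kcnj8 and Des were the 3 at least 2-fold higher, and 0 were at least 2-fold lower. Mural genes did not all share a direction, as 11 lay above the median of all genes and 4 below. Ratios of these 4 were -0.70 for Anpep, -0.39 for Cnn1, -0.07 for Mcam and 0.06 for Cspg4. 

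The 9 genes of the perineurium, the sheath that seals each nerve bundle, had a median of 0.60 above all genes, with 3 at least 2-fold higher, Itgb4 among them. Krt19 stood at 20.9, 46.8 and 29.7 CPM (1.13) and Msln (mesothelin) at 5.92, 16.1 and 13.4 CPM (1.30). Slc2a1, the glucose transporter of this barrier, stood at 93.2, 173 and 158 CPM and Cldn1, its claudin, at 211, 337 and 246 CPM. Of the 9 genes, 7 lay above the median of all genes and 2 below it. Those below were Mpzl2, at 23.8, 16.5 and 13.7 CPM (-0.50), and Ntn4, at 54.1, 47.2 and 43.9 CPM (-0.19).

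Most macrophage genes lay slightly below the median of all genes, 14 of 19, with 5 above it. The general marker Csf1r, a growth factor receptor, stood at 295, 290.0 and 225 CPM. Adgre1 (F4/80) stood at 62.5, 77.3 and 65.8 CPM, and the complement gene C1qa at 206, 204 and 191 CPM. All were near equal between sham and model. The list of 19 had a median of -0.12, and 2 were at least 2-fold lower, the lysozyme gene Lyz2 at 1173, 404 and 1295 CPM (-1.53) and Cd68, a lysosomal protein, at 49.4, 21.8 and 65.1 CPM (-1.14).

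Most genes of macrophages that have taken up lipid were lower, with a median of -0.64 relative to all genes and 5 of 20 at least 2-fold lower, though Fabp4 and Lpl on it are also fat cell genes. Gpnmb, a glycoprotein of such cells, stood at 596, 49.1 and 1194 CPM (-3.58). Mmp12, the macrophage elastase, had 169, 0 and 5688 counts, and Atp6v0d2, a proton pump subunit, 264, 0 and 728 counts. By counting error alone, 0 counts allow a level up to 3 counts, which is 0.0350 CPM in the model library, and no fold is given. As with other counts of 0 here, these are given as listed and not as absence. Both genes are among the 5 counted as at least 2-fold lower. Trem2, a lipid receptor of these cells, stood at 20.4, 14.9 and 40.6 CPM. In these 4 genes the model library was the lowest of the 3 and the AKBA library the highest. Spp1 (osteopontin), also on the list, went the other way, at 569.7, 966 and 676 CPM (0.76), as did the tetraspanin Cd9, which Schwann cells also make, at 459.7, 679 and 875 CPM (0.56).

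Immune receptors of the paired type, which come as activating and inhibiting versions, were lower. Of 25 kept, 6 were at least 2-fold lower and 0 higher, 1 lay above the median of all genes, and the median was -0.62, or -0.41 with a pseudocount of 5 CPM. Lilrb3 and Lilrb4, inhibitory receptors of myeloid cells, stood at 89.4, 3.17 and 54.3 CPM and 55.6, 3.35 and 87.3 CPM (-4.44 and -3.70). Clec7a, the receptor for fungal glucans, stood at 31.9, 5.83 and 45.3 CPM (-2.27), Cd300lf at 5.82, 1.15 and 8.19 CPM (-1.66), Cd300a at 4.48, 1.67 and 11.4 CPM (-1.04) and Lilra5 at 18.9, 6.60 and 15.7 CPM (-1.39). The Lilr genes are near-identical copies, and placed transcripts covered 10.8% of the Lilrb3 count in sham and 4.82% of that of Lilrb4, so their single values are uncertain.

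Lymphocyte, mast cell, antigen presentation and interferon genes stayed within 2-fold. None of the 12, 12, 20 and 22 genes kept from these lists passed it in either direction. Over all genes kept only 3.46% were at least 2-fold higher and 1.68% lower, so lists of this size would hold few such genes at that share. The mast cell protease Cpa3 stood at 92.5, 123 and 34.5 CPM, and the T cell gene Cd3e at 1.04, 1.96 and 1.62 CPM. Of 24 complement genes, 2 were at least 2-fold lower. C6, a part of the membrane attack complex, stood at 520.4, 164 and 105 CPM (-1.66), and Vsig4, a complement receptor of resident macrophages, at 3.21, 0.665 and 1.27 CPM (-1.34). Of 31 cytokine and chemokine genes, Ccl21 alone passed 2-fold. Of 7 neutrophil genes kept, 4 lay below the median of all genes. The single member past 2-fold was Retnlg, a secreted protein, at 0.579, 4.89 and 0.168 CPM (1.90). S100a9, a calcium-binding protein, stood at 4.69, 1.88 and 2.69 CPM (-0.98) and the peroxidase gene Mpo at 61.5, 44.3 and 15.4 CPM (-0.46).

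Notch genes were higher, with 5 of 19 at least 2-fold higher and a median of 0.53 above all genes. The ligands Jag2 and Dll1 stood at 5.44, 21.4 and 25.5 CPM and 5.56, 15.2 and 10.7 CPM (1.80 and 1.31). Nrarp, a target that feeds back on the pathway, stood at 5.30, 22.4 and 11.2 CPM (1.89), and Notch4, the endothelial receptor, at 11.1, 23.8 and 22.0 CPM (1.03). Vessel genes are among these, and they stand beside the higher endothelial list.

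Among other signals, the lists of Wnt, TGF-beta and growth factor genes had medians within 0.5 of all genes, with a few members farther out. They had 3, 1 and 6 genes at least 2-fold higher of 38, 48 and 36. Sfrp5, a Wnt antagonist, stood at 188, 469 and 255 CPM (1.31) and the ligand Wnt6 at 5.89, 14.1 and 16.1 CPM (1.13). Lgr6, a receptor that strengthens Wnt signals, stood at 2.74, 7.34 and 6.72 CPM (1.16). Id1, a direct target of BMP signals, stood at 25.1, 86.1 and 53.2 CPM (1.74), while Gdf10, a ligand of that family, stood at 50.1, 19.2 and 22.1 CPM (-1.34). The growth factor genes Pdgfa and Pdgfb stood at 10.3, 29.5 and 36.2 CPM and 8.22, 22.3 and 17.0 CPM (1.43 and 1.34). Igf2 stood at 36.6, 83.3 and 68.1 CPM (1.16) and the vessel-destabilising Angpt2 at 22.9, 54.1 and 48.4 CPM (1.20). Pgf, a vessel growth factor, and the receptor Fgfr4 had ratios of 1.21 and 1.18.

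Hippo pathway genes had a median of 0.13 above all genes, with 3 of 23 at least 2-fold higher. Wwc1 (KIBRA), which activates the pathway, stood at 0.563, 3.66 and 3.08 CPM (1.58), and Tead4, the partner of YAP on DNA, at 10.3, 22.3 and 22.1 CPM (1.04). The remaining member past 2-fold is Cyr61. Yap1 and Wwtr1, the 2 effectors, stood at 142, 130.3 and 152 CPM and 66.0, 99.3 and 92.7 CPM, respectively.

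Nr3c1, the glucocorticoid receptor, was among the 10 highest ratios of genes with counts in both libraries and a mean of at least 5 CPM, at 89.7, 495 and 394 CPM (2.45). Of its 20 list members, 2 were at least 2-fold higher, the other being Errfi1, an inhibitor of EGF receptors, at 52.3, 107 and 138 CPM (1.02). The targets Fkbp5 and Tsc22d3 stood at 32.0, 31.9 and 27.0 CPM and 118, 149 and 123 CPM, respectively. Placed transcripts held 29.2% of the Nr3c1 count in sham and 14.8% in model.

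Immediate early genes, which also respond to handling of tissue, were partly higher, with 5 of 29 at least 2-fold higher. Egr1 stood at 11.0, 26.5 and 16.8 CPM (1.20), Nr4a1 at 15.1, 34.6 and 35.1 CPM (1.14) and Fos at 11.0, 19.5 and 52.5 CPM. Ier2, Egr3 and Fosl1 had ratios of 1.12, 1.12 and 1.01. Clock genes included 2 that were lower, Rora at 153, 71.8 and 102 CPM (-1.08) and Npas2 at 34.9, 14.6 and 14.2 CPM (-1.20), the latter turning when placed transcripts are summed. The sources used here do not give the hour at which each nerve was taken.

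Axon guidance genes spread widely. Of 58 kept, 9 were at least 2-fold higher and 2 lower. Sema3g, a semaphorin of vessels, stood at 14.7, 49.9 and 38.9 CPM (1.70), and Sema3b at 283, 631 and 685 CPM (1.15). The receptor Plxnb1 stood at 27.9, 76.1 and 68.4 CPM (1.42) and Epha2 at 14.5, 36.0 and 34.9 CPM (1.26). Sema7a, which promotes axon growth, stood at 16.0, 40.3 and 40.6 CPM (1.28). Robo4, the endothelial roundabout receptor, stood at 4.98, 15.9 and 11.1 CPM (1.50). Sema3a, which repels axons, was lower, at 10.4, 4.13 and 5.78 CPM (-1.15), again turning with placed transcripts.

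Genes of dividing cells were higher from a low level. Of 35 cell cycle genes 31 lay above the median of all genes and 8 passed 2-fold upward. The list lay 0.52 above all genes by its median, or 0.28 with a pseudocount of 5 CPM. Top2a, which untangles DNA, stood at 17.8, 39.4 and 33.1 CPM (1.10), Cdk1, the kinase of mitosis, at 2.66, 7.28 and 6.35 CPM (1.18) and Rrm2, which makes DNA building blocks, at 3.05, 10.3 and 16.5 CPM (1.48). Fam111a is also on this list. Histone genes, most of which are copied in dividing cells, lay on the same side, with 5 of 40 at least 2-fold higher and a median of 0.36 above all genes.

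Of the families grouped by symbol, 67 had at least 5 genes kept, and 61 of these had a median within 0.5 of all genes. Ribosomal proteins (-0.05), proteasome subunits (-0.01), Hox genes (0.03), zinc finger proteins (-0.06) and solute carriers (0.01) lay near that of all genes. Subunits of respiratory complex I lay slightly lower, at -0.27, with 4 of 34 above the median of all genes and none past 2-fold.

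**Figure D4:**
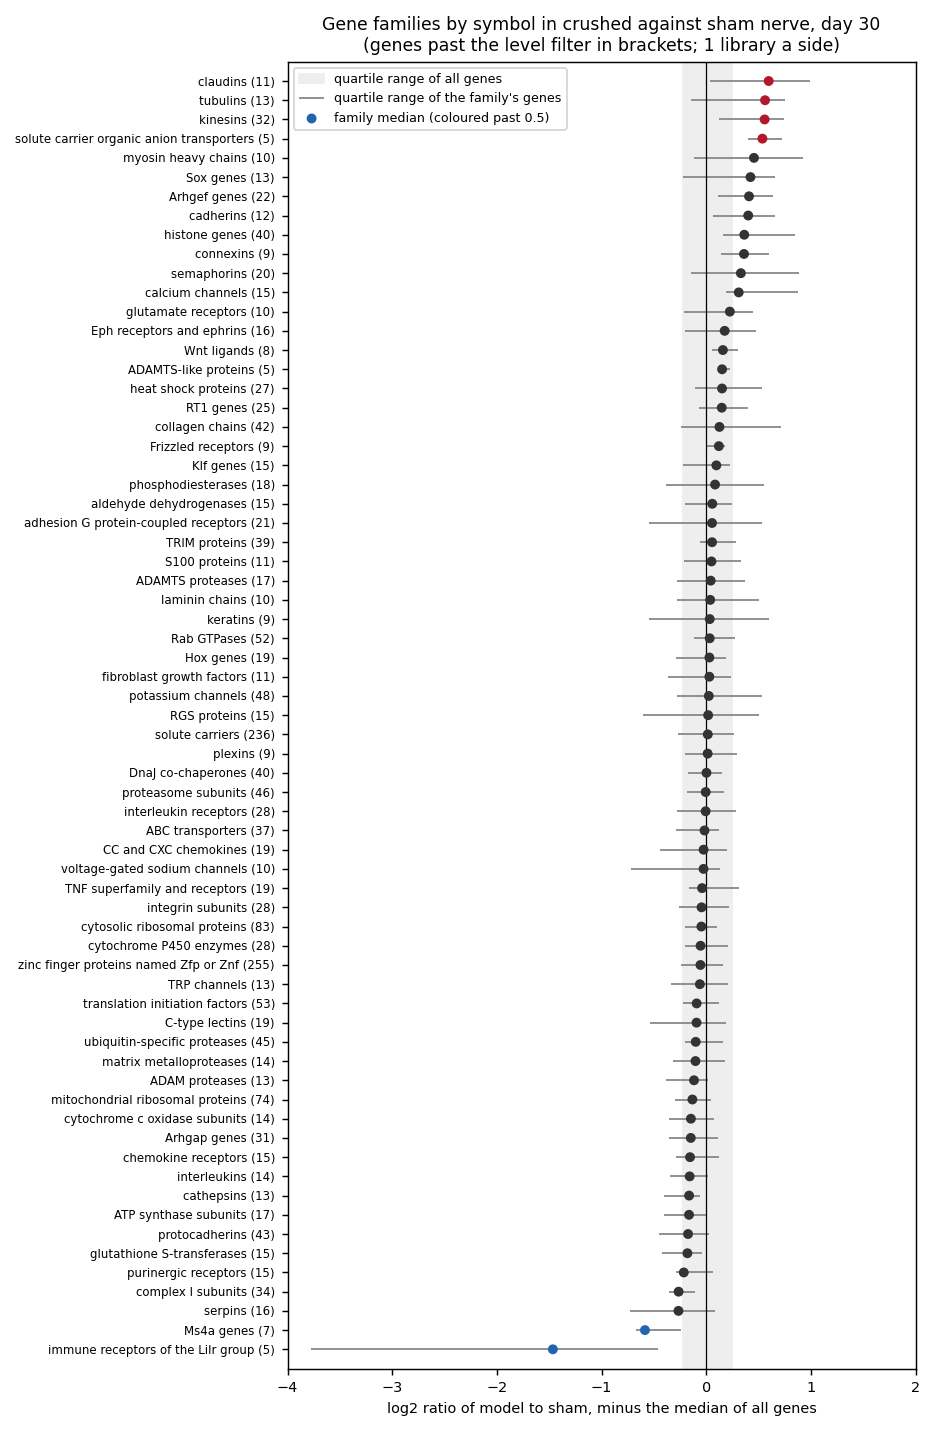
Median log2 ratio of model to sham, minus the median of all genes, for families of genes grouped by symbol with at least 5 genes kept (points), with the range between the quartiles of each family (lines) and of all genes (grey band). The Lilr receptors stand lowest at -1.47 (-0.45 without the level filter), and tubulins, kinesins, claudins and organic anion transporters highest, between 0.54 and 0.60.

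A few families lay higher. Tubulins had a median of 0.56 and kinesins, the motors that walk on them, one of 0.56, or 0.35 with a pseudocount of 5 CPM, with 28 of 32 kinesins above the median of all genes. Tubb4a, a tubulin of myelinating cells and neurons, stood at 22.6, 69.5 and 37.3 CPM (1.58), Tuba1a at 533, 1133 and 739.6 CPM (1.09), and Kif1a, which carries vesicles, at 149, 353 and 252 CPM (1.24). Claudins, of tight junctions, had a median of 0.60, which is 0.16 without the level filter. Other families of cell contacts lay on both sides, connexins at 0.36, integrin subunits at -0.05 and protocadherins at -0.17. Among cadherins, Cdh1, which forms the junctions within a Schwann cell's own myelin, stood at 68.9, 218 and 127 CPM (1.65). Organic anion transporters, with 5 genes, had a median of 0.54 that turns to -0.0095 without the level filter.

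Channel families were mixed. Kcna5, a potassium channel, stood at 4.95, 17.2 and 11.4 CPM (1.61). The calcium channel subunit Cacnb3 stood at 21.8, 60.1 and 37.1 CPM (1.42). Gabbr1, a GABA receptor present on Schwann cells, stood at 97.5, 209.5 and 171 CPM (1.10) and Grin2b, a glutamate receptor, at 35.6, 15.8 and 37.4 CPM (-1.12).

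Glycolysis, lysosome, heat shock and antioxidant genes had medians between -0.17 and -0.03 relative to all genes. Few members passed 2-fold. Slc2a3, a glucose transporter of neurons, stood at 7.35, 16.0 and 13.9 CPM (1.02) and Pdk1, which holds pyruvate back from mitochondria, at 153, 74.3 and 57.1 CPM (-1.03). The heat shock genes Hspa2 and Hspb6 stood at 112, 254 and 281 CPM and 2.53, 7.38 and 8.65 CPM (1.18 and 1.25).

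Among genes with counts in both libraries and a mean of at least 5 CPM, the highest ratio belonged to Fam111a, a protease that acts in DNA replication, at 7.26, 170.0 and 14.4 CPM (4.37). Placed transcripts held 83.0% of its count in sham and 21.2% in model. Arhgef4, an activator of small GTPases, followed at 2.57, 46.0 and 5.11 CPM (3.72). In both genes the AKBA library was much nearer to sham than to model. Zfp238, a repressor of transcription, stood at 2.94, 26.2 and 21.9 CPM (2.79). Rgs16, which switches off G proteins, stood at 3.32, 25.5 and 27.0 CPM (2.62) and the transporter gene Slc26a10 at 3.35, 17.8 and 12.4 CPM (2.11), and both turn direction with sums of placed transcripts. Those sums miss most of both genes in model. They held 34.9% of the Rgs16 count in sham and 0.0457% in model, and 100% and 9.63% of the Slc26a10 count. 

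Other genes of the 30 highest span several cell types. Arc, an immediate early gene best known from neurons, stood at 1.01, 10.6 and 3.72 CPM (2.53). Apold1, an early response gene of endothelium, stood at 7.87, 42.6 and 24.2 CPM (2.30), and Lrg1, a glycoprotein that promotes vessel growth, at 7.31, 31.1 and 28.5 CPM (1.95). Faim2, an inhibitor of cell death in neurons, was high in model alone, at 5.54, 29.3 and 5.64 CPM (2.21). Celsr2, an adhesion receptor of cell polarity, stood at 23.5, 92.2 and 74.0 CPM (1.93) and the transcription factor gene Tbx2 at 2.97, 15.9 and 13.5 CPM (2.09). Adcy1, which makes cyclic AMP, stood at 7.35, 33.5 and 22.1 CPM (2.05) and Enoph1, of methionine salvage, at 14.1, 61.2 and 57.3 CPM (2.04). Rnase2, Lrtm2, Tmem189 and Tinagl1 had ratios from 1.86 to 2.10, and Rnase2 belongs to a family of near-identical copies.

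Among the lowest, Selenbp1, a selenium-binding methanethiol oxidase, had 1590, 1 and 1565 counts. By these counts the level in sham was 2076 times that in model. Counting error alone puts the log2 of model over sham from -16.3 to -8.54. No transcript was placed in Selenbp1, so its count of 1 in model could not be checked there. Like the counts of 0 below, it is given as listed. Ephx2, which opens lipid epoxides, stood at 15.8, 0.886 and 5.11 CPM (-3.15). Serpina3n, a protease inhibitor of injured tissue, stood at 406, 110.2 and 93.8 CPM (-1.87) and Arhgap5, a regulator of small GTPases, at 276, 76.4 and 63.3 CPM (-1.84). In Selenbp1 the AKBA library was near sham, and in Serpina3n and Arhgap5 near the model. Dnah5, a motor of cilia, stood at 11.1, 2.65 and 0.108 CPM (-1.72) and Ca5b, a mitochondrial carbonic anhydrase, at 169, 46.4 and 29.9 CPM (-1.84). Cd84, an adhesion receptor of immune cells, stood at 19.1, 4.82 and 26.9 CPM (-1.79). The others of the 30 lowest are Slc4a10, Asb15, Krt79, Ifnlr1, Fam57b, Ly49si1, Card14, Adhfe1 and Rgs7, with ratios from -2.14 to -1.64, of which Ifnlr1 turns direction with sums of placed transcripts. Its placed transcripts held 5.53% of the gene count in sham and 69.5% in model.

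Some genes had counts in one library and none in the other. Of 18 genes at 0 in sham or model and at 5 CPM or more in the other, 9 were at 0 in sham and 9 in model, and 13 carry only locus names. Crkl, a signalling adaptor made in most cells, had 721, 0 and 975 counts. Timm17b, a part of the mitochondrial import pore, had 383, 0 and 384 counts. Col23a1, a transmembrane collagen, had 0, 2999 and 1204 counts. Zfp74 had 0, 756 and 619 counts by gene, and a transcript that was not placed in it had exactly these counts. The transcripts placed in Zfp74 held 422, 661 and 558 counts, so the placement for this gene is in doubt. Since housekeeping genes are among the 18, a count of 0 is given as listed and not as absence.

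The transcript table was used to see whether gene levels hide exchanges between transcripts. Of 55767 transcripts, 31077 could be placed in 16991 genes. In 204 of 1830 genes with at least 2 transcripts at 5 CPM or more (11.1%), one transcript was at least 2-fold higher and another at least 2-fold lower in model. For 166 of these 204 the ratio of the whole gene lay within 0.5 of 0. Over all genes kept, the quartiles of the ratio were -0.15 and 0.32, so ratios of that size are common.

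In several genes the exchange was nearly complete. Sh3glb1, a membrane-bending protein of autophagy, had a transcript at 0, 255 and 0 CPM and another at 210.4, 0 and 161 CPM. Gfra1, the receptor for GDNF, had another main transcript in model alone, with 9.33, 199 and 15.5 CPM for one and 103, 3.88 and 200.2 CPM for the other, while the whole gene stood at 126, 211 and 226 CPM. Sec23ip, of vesicle export, had 66.9, 2.22 and 2.18 CPM and 0.183, 61.0 and 57.7 CPM, and here both crushed libraries differed from sham. Tinagl1, a matrix protein, had 2.54, 104 and 76.4 CPM and 3.79, 79.1 and 72.5 CPM on a pair of transcripts and 43.4, 0.152 and 0.156 CPM on another. The others of the 10 largest exchanges were Fhl1, Rere, Nek6, Ndst1, Dopey1 and Wbp2. The sources used here do not say how reads shared by overlapping transcripts were divided, and with 1 library a side their spread is not known.

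**Figure D5:**
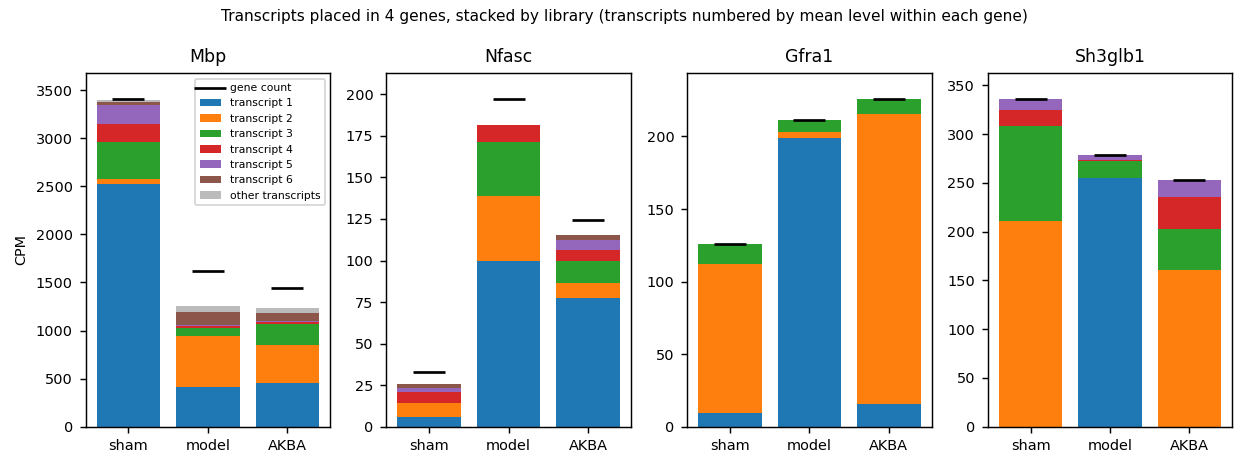
Levels (CPM) of the transcripts placed in Mbp, Nfasc, Gfra1 and Sh3glb1 in the sham, model and AKBA libraries, stacked, with the gene count as a black line. The most abundant sham transcript of Mbp stands at 2521 CPM in sham and 413 CPM in model, and the main Gfra1 transcript differs between model and the other two libraries.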

How the data were processed

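RNA of rat sciatic nerve was sequenced as 1 library per group after removal of ribosomal RNA with probes, per the labels' protocols. The authors deposited raw counts per gene and per transcript, as the whole numbers and unequal library totals of the tables show. The model column carries the 2 text characters of a line end after each deposited count, which were stripped, leaving whole numbers. Per the submitters' processing notes, bcl2fastq 2.0, HISAT2, StringTie, DESeq2 and limma were used and the build is mm10, a mouse build, although gene and transcript names are those of rat. The genome used is therefore not settled, and no coordinates are taken from the files. Strand and the treatment of reads matching several genes are not stated, so overlapping and near-identical genes are uncertain.

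Ribosomal RNA rows were dropped, counts were scaled to CPM, and log2 ratios of (CPM + 1) were taken for genes averaging 1 CPM or more. With 1 library a side no test was run. Intervals are exact (Clopper-Pearson, 95%) and cover counting error only, and a count of 0 is given a floor of 3 counts. The genes named are the 30 highest and lowest ratios at a mean of 5 CPM or more with counts in both libraries, and in each list the defining members, those at least 2-fold apart and the largest ratios. Genes and lists were chosen with earlier results of these data known, and the lymphatic group after its values were seen. Transcripts were placed in genes by their RefSeq identifiers, and promoters come from RefSeq. Some genes of the lists are counted in them but not reported here by name. Alternatives were the pseudocount, the level filter, the scaling and sums of placed transcripts. Scripts were tested on simulated data. R 4.3.3 with edgeR 4.0.16 and DESeq2 1.42.0 (scaling only), Python 3.11.15, numpy 2.4.6, pandas 2.3.3, scipy 1.17.1 and matplotlib 3.10.9 were used.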

Additional observations from a re-analysis of the deposited data

How the results depend on the processing

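With 1 library a side, no result has a replicate check, a difference between 2 animals or dissections cannot be told apart from an effect of the crush, and no library could be left out. No paired analysis was possible because each group has 1 library. The counts of genes past 2-fold depended on the pseudocount and on the scaling. At a pseudocount of 0.1 CPM the counts were 717 higher and 368 lower, and at 5 CPM they were 238 higher and 103 lower. At 3-fold they were 94 and 57. Sums of placed transcripts gave 722 genes higher and 374 lower. Of 18 lists and families past 0.5, 17 kept their sign in every setting computed for them, the exception being organic anion transporters at -0.0095 without the level filter. The 3-fold threshold was applied to the counts of genes only. The fat cell and skeletal muscle lists have no value in the setting that leaves out genes of fat, muscle and red cells. Sizes moved more. A pseudocount of 5 CPM brought the node and paranode list to 0.45, Notch to 0.42, cell cycle to 0.28, paired immune receptors to -0.41, kinesins to 0.35 and Ms4a genes to -0.25. Without the level filter claudins lay at 0.16, tubulins at 0.41 and Lilr receptors at -0.45, the last at -3.78 with a filter at 5 CPM. Fibrillar collagen and clock genes had smaller medians whose sign turned with sums of placed transcripts. Among genes named, sums of placed transcripts turned the ratio of Rgs16 to -1.29, Slc26a10 to -0.73, Ncam1 to -1.74, Col11a2 to -1.78, Ifnlr1 to 0.60, Runx2 to 0.43, Prox1 to 0.20, Sema3a to 2.02 and Npas2 to 1.08. Sums hold only placed transcripts, so part of a gene can be missing from them.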

Other observations

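Some of the most abundant genes of the nerve differed in ways that none of the gene lists covers. Apod (apolipoprotein D), a lipid carrier made by fibroblasts of the nerve, stood at 4310.4, 1781 and 3443 CPM (log2 ratio -1.27), low in model and not in the AKBA library. Fth1, the heavy chain of the iron store ferritin, stood at 2803, 4529.8 and 3054 CPM (0.69). Car3, a carbonic anhydrase abundant in fat and slow muscle, stood at 7664, 4489 and 2246 CPM (-0.77). Beside it, fat cell genes summed to 17810.5, 10322 and 5846 CPM and skeletal muscle genes to 567, 1055 and 8249 CPM, and the part of either in the Car3 level was not tested.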
